A study of Arabidopsis thaliana with 4 samples.

Results

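Of 18738 Arabidopsis thaliana genes with a usable probe, 49 were higher in salt-treated seedlings after 2 h and little above, near or below their 0 h level at 5 h. A small excess over 0 h remained on both 5 h arrays in 23 of the 49. They were chosen by their measured values on all 4 arrays. A gene belongs to the set if its log2 ratio of salt over 0 h was at least 1.2 on each 2 h array and at most 0.4 on each 5 h array. The ratio is that of the processed signals in Cy5 (salt) and Cy3 (0 h), with each array's median over its probes subtracted. A probe counted only where Cy5 and Cy3 were each marked well above background on every array, and the brightest such probe stood for its gene. The pattern of high 2 h and low 5 h ratios is therefore how the genes were selected, and it is given below as a description, with no test.

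The study measured transcripts of whole seedlings of the ecotype Col-0 on 2-colour Agilent arrays. Seedlings were 14 days old, grown in short days on agar medium with sucrose, and moved to paper soaked in salt solution (300 mM NaCl), with 2 arrays for a stay of 2 h and 2 arrays for a stay of 5 h. Each array set one salt sample against seedlings at 0 h, which carried no salt treatment, and the series' design text calls the 2 samples of each time biological replicates. All groups shared the same ecotype, age and growth conditions, and no transgene or mutation was involved. Seedlings moved to paper without NaCl were not analysed here, so salt cannot be told apart from the transfer or the time of day. Salt RNA carried Cy5 on every array, so a dye bias of a probe cannot be told apart from salt within a ratio, while it drops out of the difference between 5 h and 2 h. The 0 h seedlings were counted as 1 control sample, and its own spread is left out of every ratio. In RNA from whole seedlings, fewer cells of a type and less RNA per cell cannot be told apart.

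All 4 arrays came from 1 slide and 1 scan. In each channel 70.5% to 72.4% of spots exceeded background clearly, and saturation was marked at 0 spots. The difference between the arrays of a time had an SD of 0.0959 (2 h) and 0.0722 (5 h) across genes on the log2 scale, taken from the median absolute deviation. Of the markers checked for the labelled tissue, 6 of 6 shoot genes and 7 of 8 root genes were well above background at 0 h on all arrays, and the nitrate transporter gene NRT2.1 was not. The precision of every value is limited by having 2 arrays for each time.

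High salt reaches a plant as an osmotic shock within minutes and as a build-up of sodium ions over hours. The first phase brings calcium signals, reactive oxygen, changes in the cell wall and a burst of transcription, and many early genes are shared with responses to wounding, touch and microbes. Some of these transcripts stay high as long as the stress lasts, while others fall back, and a transient gene is one of the second kind. Why the genes described here fell was not tested.

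At 2 h the mean log2 ratios of the 49 genes lay between 1.21 and 3.15, with a median of 1.53, and 8 genes were at least 4-fold above 0 h (5 genes with normexp background correction and loess normalization, another processing described below and called loess). At 5 h their means lay between −1.27 and 0.34, with a median of 0.10. The difference, 5 h minus 2 h, lay between −3.41 and −0.98 (median −1.47). Within the range that the rule allowed at 5 h, 23 genes were above 0 on both 5 h arrays, 16 were below 0 on both, and 10 had one array on each side. These signs are read against a median of −0.16 over all genes at 5 h. By loess some of the 16 no longer lay below 0, such as ERD6 (0.01 and 0.05). Others still did, such as AED1 (−0.57 and −0.84). The 3 genes at or below −0.4 on both 5 h arrays were AED1, AT5G02540 and AT3G10720. In comparison, 1125 genes had ratios of at least 1.2 at both times and 242 had them at 5 h only, under the same thresholds.

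**Figure D1:**
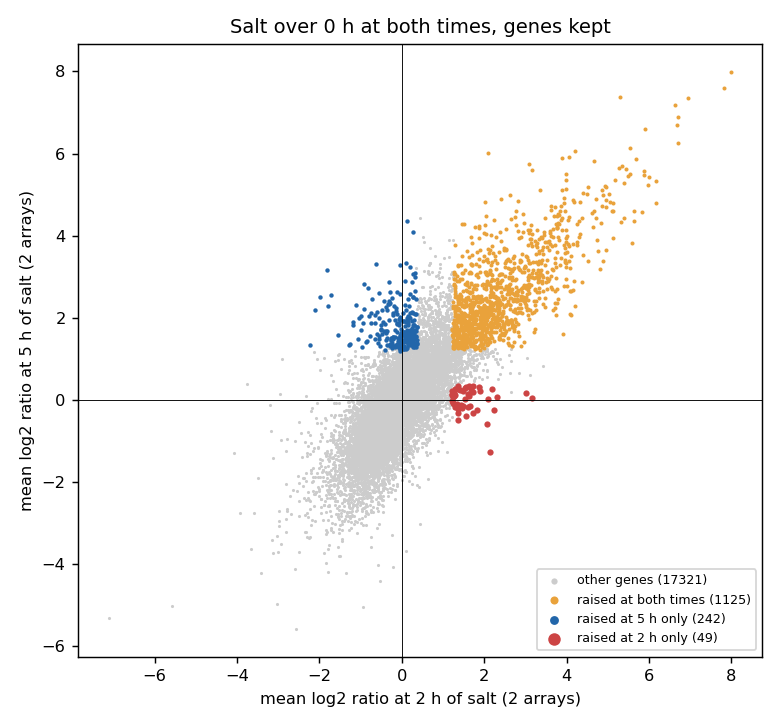
Mean log2 ratio of salt over 0 h at 2 h (horizontal axis) and at 5 h (vertical axis), 2 arrays each, for every gene kept. The 49 genes raised at 2 h only (red) lie at 1.21 to 3.15 on the horizontal axis and between −1.27 and 0.34 on the vertical axis, apart from the 1125 genes raised at both times (orange) and the 242 raised at 5 h only (blue).

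The gene table used here, from RefSeq, gives a name beyond the locus to 24 of the 49 genes, and the other 25 are given by locus with no role. By those names the set holds secreted proteins, receptor-like proteins of the cell surface, peroxidases and detoxifying enzymes, wall and glycoside enzymes, membrane transporters, enzymes of lipids, phenolics and sulfur, and 2 genes of transcriptional regulators. In the values that follow, 2 h and 5 h values are log2 ratios of salt over 0 h, array 1 and then array 2.

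Secreted proteins held the named gene with the highest 2 h mean, PNP-A (by loess CYP96A4 was higher), and the one with the lowest 5 h mean, AED1. PNP-A encodes plant natriuretic peptide A, a small secreted, expansin-like protein known for effects on water and ion movement. Its ratios were 3.05 and 2.98 at 2 h, and 0.35 and 0.01 at 5 h, which is 8.08-fold above 0 h on average at 2 h, and 4.40-fold by loess. Its probe was dim at 0 h, with Cy3 signals of 67.0 and 69.8 on the 2 h arrays. AED1 (AT5G10760) encodes an aspartyl protease of the apoplast, the space outside the plasma membrane, and depends on the immune regulator EDS1. It stood at 2.14 and 2.14 at 2 h and at −1.07 and −1.47 at 5 h. The 2 h arrays put AED1 4.41-fold above 0 h and the 5 h arrays at 0.414 times 0 h, the lowest 5 h level in the set. EDS1 itself had ratios of 0.80 and 0.66 at 2 h, and −0.50 and −0.73 at 5 h. A link between the courses of EDS1 and AED1 was not tested.

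Proteins of the cell surface came next. WAKL10, a wall-associated kinase-like protein, had 2 h ratios of 2.52 and 1.84 and 5 h ratios of 0.25 and 0.31. The gap of 0.68 between its 2 h arrays was the widest of any member at that time, and its probe was dim at 0 h, with Cy3 signals of 44.5 and 79.5 on those arrays. WAKL10 was 4.54-fold above 0 h at 2 h, and 2.64-fold by loess. CRK6, a cysteine-rich receptor-like kinase, had 1.41 and 1.84 at 2 h, and −0.05 and 0.36 at 5 h. Its probe was also dim at 0 h, with Cy3 signals of 54.0 and 41.7 on the 2 h arrays. At 2 h it was 3.08-fold above 0 h, and 1.91-fold by loess. RLP19, a receptor-like protein without a kinase, had 1.31 and 1.35 at 2 h, and −0.01 and −0.19 at 5 h. FLR1 (FLOR1), a leucine-rich repeat protein named for its part in flowering, had 1.58 and 1.70 at 2 h, and 0.17 and 0.03 at 5 h. In each of these 4 genes the lowest 2 h array lay at least 1 log2 unit above the highest 5 h array, and at 5 h CRK6 alone had an array on each side of 0 h.

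Both peroxidases with a name had 5 h ratios below 0, where the median of all genes was −0.16. PRXCA encodes a class III peroxidase, a secreted enzyme that makes and uses hydrogen peroxide in the cell wall, and had 1.66 and 1.79 at 2 h, and −0.33 and −0.31 at 5 h. Prx37, of the same class, had 1.63 and 1.70 at 2 h, and −0.06 and −0.25 at 5 h. By loess the 5 h ratios were closer to 0, at −0.21 and −0.04 for PRXCA and −0.01 and −0.02 for Prx37. GSTF10, a glutathione S-transferase of the phi class, which joins glutathione to reactive compounds, had 1.59 and 1.69 at 2 h, and 0.38 and 0.29 at 5 h. HB1, a class 1 hemoglobin that removes nitric oxide, had 1.57 and 1.52 at 2 h, and 0.38 and 0.22 at 5 h. GSTF10 and HB1 thus kept a small excess over 0 h on both 5 h arrays, just under the limit of the rule.

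XTH18 and 3 others are enzymes of the wall or of glycosides. XTH18, which cuts and rejoins xyloglucan chains in the wall, had 1.28 and 1.27 at 2 h, and 0.24 and 0.10 at 5 h. ATCSLA15 and CSLA11 belong to the cellulose synthase-like A group, whose known members make mannan backbones. ATCSLA15 had 1.57 and 1.57 at 2 h, and 0.32 and 0.31 at 5 h. CSLA11 had 1.22 and 1.21 at 2 h, and 0.31 and −0.08 at 5 h. BGLU6, of the beta-glucosidase family, had 1.35 and 1.37 at 2 h, and 0.37 and 0.18 at 5 h. These 4 genes differed by less than 0.05 between the arrays of 2 h.

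Membrane transport proteins of separate families were in the set. PEN3 (ABCG36) is an ABC transporter of the plasma membrane known for its part in defence against fungi, and had 1.75 and 1.70 at 2 h, and 0.27 and 0.12 at 5 h. Its Cy5 signals, before scaling between arrays, were 37495 and 39457 at 2 h and 20420 and 18668 at 5 h, beside Cy3 signals of 10933, 11964, 17447 and 16027. ERD6, of the sugar transporter family and first found as an early gene of dehydration, had 1.50 and 1.37 at 2 h, and −0.10 and −0.15 at 5 h. UMAMIT17 belongs to a family that holds amino acid exporters, and had 1.36 and 1.37 at 2 h, and 0.39 and 0.29 at 5 h. ERD6 was slightly below 0 h on both 5 h arrays (0.01 and 0.05 by loess), while PEN3 and UMAMIT17 were above it on both.

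Metabolic enzymes covered lipids, phenolics and sulfur. CYP96A4, a cytochrome P450 of a family that includes a wax-forming alkane hydroxylase, was the highest of these, with 2.23 and 2.26 at 2 h, and −0.19 and −0.32 at 5 h. HOS3-1, a homologue of fatty acid elongases, had 1.53 and 1.42 at 2 h, and 0.26 and 0.20 at 5 h. PAP1, here phosphatidic acid phosphatase 1 (LPP1), which removes the lipid signal phosphatidic acid, had 1.22 and 1.204 at 2 h, and 0.29 and 0.17 at 5 h. AACT1, an acyltransferase named for anthocyanins, had 1.51 and 1.39 at 2 h, and −0.13 and −0.26 at 5 h. Its probe was dim at 0 h, with Cy3 signals of 86.6 and 78.4 on the 2 h arrays, and its 2 h ratios by loess were 1.06 and 0.96. APS3, an ATP sulfurylase that catalyses the first step of sulfate assimilation, had 1.29 and 1.302 at 2 h, and 0.39 and 0.14 at 5 h. Only CYP96A4 of these enzymes was at least 4-fold above 0 h at 2 h.

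The named regulators of transcription were few. MYB95, a MYB-domain transcription factor, had 1.52 and 1.53 at 2 h, and 0.07 and −0.04 at 5 h. IAA20, a repressor of auxin responses that lacks the usual degradation signal of its family, had 1.41 and 1.57 at 2 h, and 0.31 and −0.59 at 5 h. Its probe was dim at 0 h, with Cy3 signals of 59.0 and 59.1 on the 2 h arrays. The gap of 0.89 between the 5 h arrays of IAA20 was the widest in the set at that time, so its 5 h level was not settled on one side of 0 h.

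**Figure D2:**
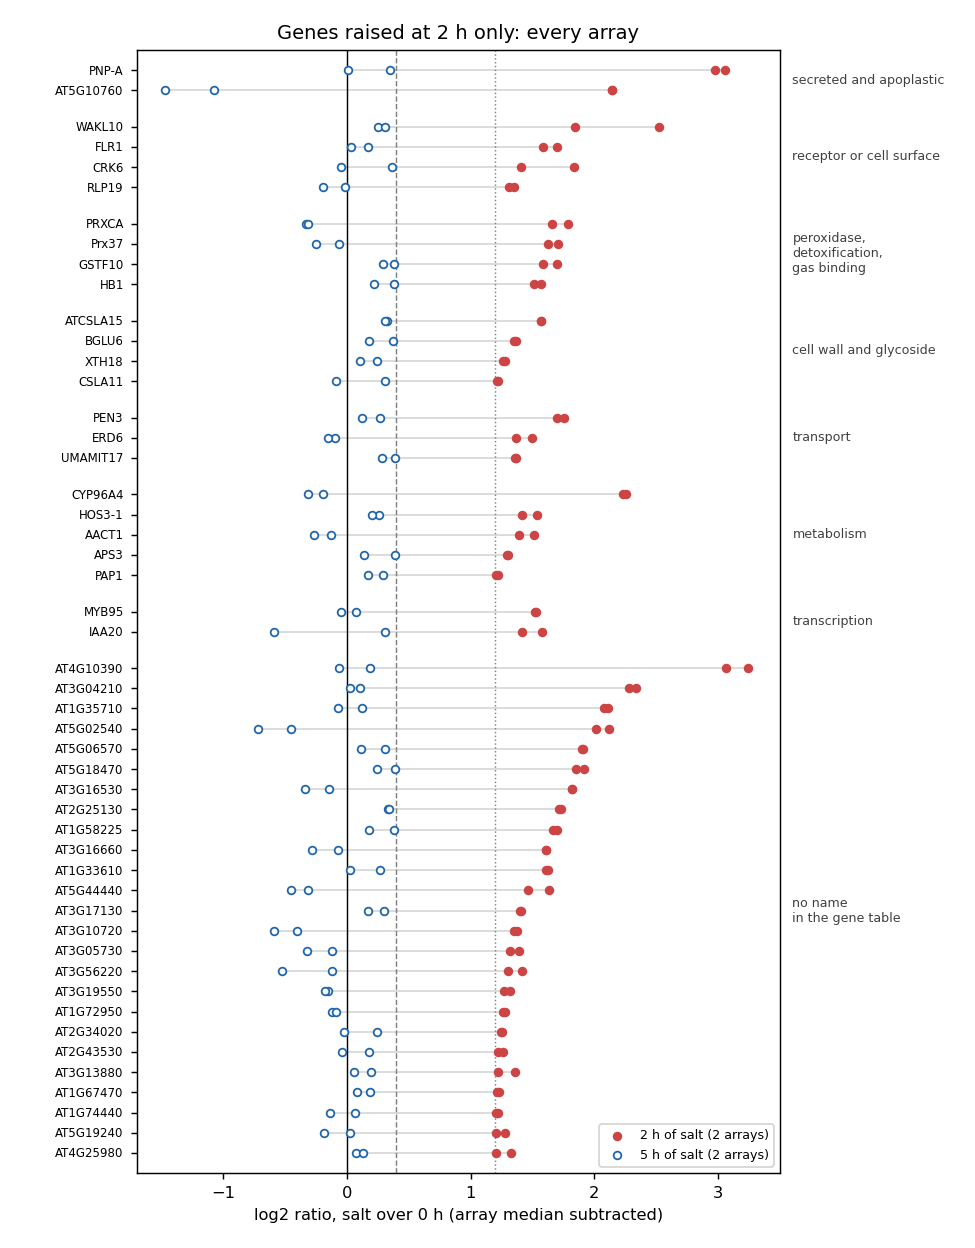
Log2 ratio of salt over 0 h on each array for all 49 genes, with 2 h arrays as filled red points and 5 h arrays as open blue points, grouped by what the named genes encode. AED1 is drawn under its locus AT5G10760. The dotted and dashed lines mark the thresholds of 1.2 and 0.4, so by the rule no gene has a 5 h point to the right of a 2 h point.

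The 25 genes without a name had 2 h means from 1.22 to 3.15, so they span nearly the whole range of the set. AT4G10390 had the highest 2 h values of all 49, at 3.06 and 3.24, and 5 h values of 0.18 and −0.07. It was 8.88-fold above 0 h at 2 h, and its Cy5 signals were 2043 and 2046 at 2 h and 347 and 304 at 5 h, beside Cy3 signals of 240 and 213, and 315 and 298. AT3G04210 had 2.34 and 2.28 at 2 h, and 0.11 and 0.02 at 5 h. AT1G35710 had 2.08 and 2.11 at 2 h, and 0.12 and −0.07 at 5 h. All of these returned to within 0.2 of the 0 h level on every 5 h array.

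AT5G02540 was below 0 h at 5 h, with 2.01 and 2.12 at 2 h, and −0.45 and −0.72 at 5 h. AT3G10720 had 1.37 and 1.35 at 2 h, and −0.40 and −0.59 at 5 h. AT5G44440 had 1.46 and 1.63 at 2 h, and −0.32 and −0.45 at 5 h. The opposite side of the 5 h range was held by AT5G18470 (1.91 and 1.85 at 2 h, 0.39 and 0.24 at 5 h), by AT2G25130 (1.73 and 1.71, then 0.33 and 0.34) and by AT5G06570 (1.90 and 1.91, then 0.31 and 0.11). AT3G16530 had 1.82 and 1.82 at 2 h, and −0.15 and −0.34 at 5 h. AT1G58225 had 1.70 and 1.66 at 2 h, and 0.38 and 0.18 at 5 h. Its probe and that of AT2G25130 were dim at 0 h. On the 2 h arrays the Cy3 signals of AT1G58225 were 45.7 and 41.3, and those of AT2G25130 were 51.9 and 51.9. AT3G16660 (1.61 and 1.61, then −0.07 and −0.28) and AT1G33610 (1.62 and 1.61, then 0.27 and 0.03) complete the 20 genes with the highest lower value of the 2 h arrays.

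The arrays of each time agreed closely in most of the set. In 42 of the 49 genes both pairs of arrays lay within 0.3 of each other. Replicate 1 lay above replicate 2 at 5 h in 43 genes, with a median gap of 0.15. The same gap was 0.14 over all genes, and 0.00112 over all genes when array medians were not subtracted.

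The values lay close to the thresholds on several sides. At the lower end of 2 h, AT4G25980 (1.33 and 1.202), PAP1 and AT5G19240 (1.28 and 1.204) were the last genes inside. ANK (1.28 and 1.19 at 2 h, 0.08 and 0.17 at 5 h), AT2G28570 and ACO1, an enzyme of ethylene synthesis (1.16 and 1.15 at 2 h, 0.16 and −0.18 at 5 h), were the first outside. At the upper end of 5 h, UMAMIT17, APS3 and AT5G18470 were the last inside. AT2G44500 (0.41 and 0.28 at 5 h), AT3G03020 (0.42 and 0.23) and AT2G22080 (0.43 and 0.27) were the first outside. A further 43 genes met both thresholds but had only probes too close to background in a channel of some array, so they were not counted.

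The choice of normalization moved many of these genes across a threshold. With background correction by normexp and loess normalization within each array, 42 genes met the rule, and 29 of them were among the 49. Of the 20 that did not, 14 fell below 1.2 on a 2 h array and 6 exceeded 0.4 on a 5 h array. Among the named genes the second kind were PEN3, GSTF10, HB1, UMAMIT17, BGLU6 and APS3, and the first kind included IAA20, CRK6, AACT1 and CSLA11. The loess difference, 5 h minus 2 h, had a median of −1.19 over the 49, and the smallest in size was −0.70.

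The 2 channels were also read apart, since the ratio joins them. Each channel was first scaled by subtracting its median log2 signal over the probes of the array. Before that scaling the median Cy3 signal was 343 and 342 on the 2 h arrays, and 467 and 427 on the 5 h arrays. The Cy5 signal, which carries the salt RNA, was lower on the 5 h arrays than on the 2 h arrays in all 49 genes, with a median log2 difference of −1.47 (range −3.35 to −0.88) against a median of 0.02 over all genes. The Cy3 signal, which carries the 0 h RNA, differed by a median of 0.03 (range −0.36 to 0.42) against 0.04 over all genes. In each of the 49 the Cy5 difference was larger in size than the Cy3 difference. These values come from the arrays that chose the genes and are given as a description.

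**Figure D3:**
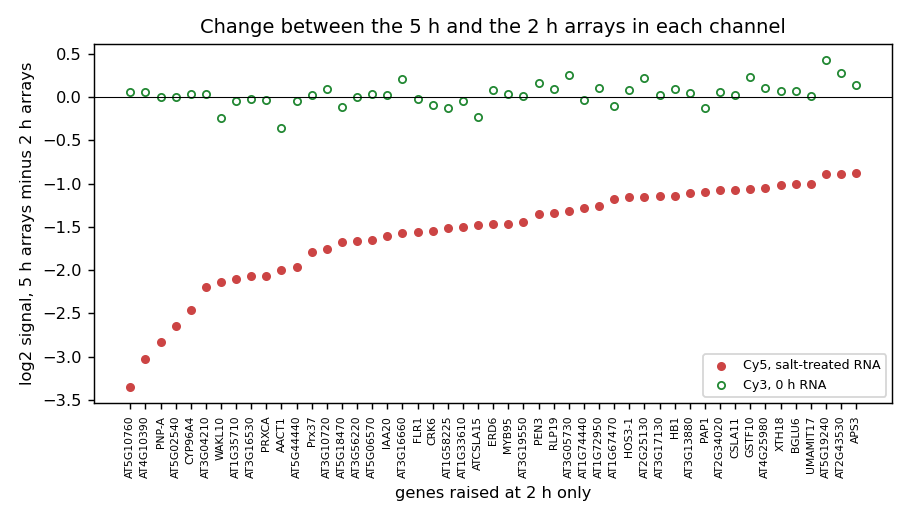
Log2 signal on the 5 h arrays minus that on the 2 h arrays for each of the 49 genes, with Cy5 (salt RNA) as filled red points and Cy3 (0 h RNA) as open green points. The median log2 signal of each channel on each array was subtracted first. Cy5 differences run from −3.35 to −0.88, and Cy3 differences stay between −0.36 and 0.42.

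For 7 of the genes a further probe passed the same demand on signal. All 7 further probes gave a lower ratio at 5 h than at 2 h, and those of FLR1 and CSLA11 also met the rule. The second probe of FLR1 had 1.88 and 1.99 at 2 h, and 0.37 and 0.31 at 5 h. That of BGLU6 had 2.42 and 2.38 at 2 h, and 1.304 and 1.22 at 5 h, a gene well above 0 h at both times by this probe. The second probe of AT5G19240 had 2.60 and 2.51 at 2 h, and 0.70 and 0.59 at 5 h. The second probe of HB1 had 1.55 and 1.57 at 2 h, and 0.56 and 0.36 at 5 h. The second probes of PAP1 (1.19 and 1.199 at 2 h) and AT2G34020 (1.11 and 0.91 at 2 h) were below the 2 h threshold. For these 5 genes the place in the set rests on the brighter probe.

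Relatives of the named genes, which were looked up after the set was known, did not follow one course. The members themselves are left out of every count of relatives. They were tested on the whole table with limma, with Benjamini-Hochberg adjustment at 0.05 over 18738 genes. Because this test called most of the transcriptome, its background is large. Against 0 h it called 28.6% of genes higher and 50.7% lower at 2 h, and 34.6% higher and 50% lower at 5 h. For 5 h against 2 h it called 30.1% higher and 34% lower. By loess the shares were 42% higher and 41.1% lower at 2 h, 44.9% higher and 44.1% lower at 5 h, and 35.7% higher and 40.4% lower for 5 h against 2 h. The median of all genes was −0.17 at 2 h and −0.16 at 5 h, and 0.00 and 0.01 by loess, so a small ratio is read against that shift. Each count of calls below moved by at most 3 genes by loess, and the loess counts are given where they moved.

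Of 7 wall-associated kinase genes other than WAKL10, 3 rose and 4 fell at 2 h, and 2 were higher and 5 lower at 5 h than at 2 h (1 and 5 by loess). WAK1 was above 0 h at 2 h and below it at 5 h, with 0.97 and 0.96 at 2 h, and −0.98 and −1.08 at 5 h. WAKL2 stayed high, with 1.82 and 1.96 at 2 h, and 1.60 and 1.54 at 5 h. WAK2 was low at both times, with −0.50 and −0.43 at 2 h, and −2.39 and −2.49 at 5 h. Of 20 cysteine-rich receptor-like kinase genes other than CRK6, 3 were higher and 12 lower at 5 h than at 2 h (4 and 12 by loess). CRK4 narrowly missed the set, with 2.53 and 2.80 at 2 h, and 0.55 and −0.16 at 5 h, while ARCK1 had 3.68 and 3.55 at 2 h, and 4.73 and 4.50 at 5 h.

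Of the 6 other cellulose synthase-like A genes measured 4 were lower and 1 was higher at 5 h than at 2 h, and the higher one was CSLA10 (0.62 and 0.84 at 2 h, 1.65 and 1.51 at 5 h). The 3 ATP sulfurylase genes other than APS3 were each lower at 5 h than at 2 h. Among them APS1 stayed near its 2 h level of 1.29 and 1.44, with 1.15 and 1.02 at 5 h. HB2, the other hemoglobin gene measured, was below 0 h at both times (−1.14 and −1.06, then −2.20 and −2.34). PRXCB, a close copy of PRXCA, had 0.32 and 0.32 at 2 h, and 0.49 and 0.39 at 5 h. Close copies may bind the same probe, so PRXCA, Prx37, GSTF10, XTH18 and the cellulose synthase-like A genes are uncertain as single genes.

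Of 35 ABCG transporter genes other than PEN3, 11 were higher and 12 lower at 5 h than at 2 h (14 and 14 by loess). The abscisic acid exporter gene ABCG25 had 1.33 and 1.17 at 2 h, and 1.98 and 1.67 at 5 h, and ABCG40, an importer of the same hormone, had 2.82 and 2.74 at 2 h, and 4.41 and 4.78 at 5 h. Both were thus higher at 5 h on each array than on either 2 h array. Of 25 genes of xyloglucan enzymes other than XTH18, 10 rose and 13 fell at 2 h (11 and 13 by loess), and 7 were higher and 12 lower at 5 h than at 2 h (9 and 12 by loess). TCH4, one of them and a gene first known from touch, had 0.99 and 1.03 at 2 h, and 1.57 and 1.47 at 5 h, the opposite course to XTH18.

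The genes next to members on the chromosome had mixed courses. Of 72 measured neighbours outside the set, 14 were lower at 5 h than at 2 h by at least 0.8 log2 units (19.4%), compared with 7.83% of neighbours of the genes raised at both times and 8.51% of neighbours of all genes, members left out there too. Of the 14, 8 were above 0 h and 5 below it on both 2 h arrays. Some of the 14, such as XTH19 beside XTH18, are of the member's own family, and close copies may bind the same probe. The shares were not tested. MYB95 and AT1G74440 are adjacent and both in the set. On the other side of MYB95 lies FUT3, a fucosyltransferase gene, with 0.85 and 0.89 at 2 h, and −1.31 and −1.18 at 5 h. Beyond AT1G74440 lies AT1G74450, which stayed high, with 3.40 and 3.25 at 2 h, and 2.73 and 2.24 at 5 h.

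Further neighbours included XTH19 and GSTF9, of the same family as the member beside them, and genes whose kinship to the member is not given here. XTH19, beside XTH18, had 0.78 and 0.89 at 2 h, and 0.09 and −0.06 at 5 h. AT4G08780, beside Prx37, had 1.03 and 1.16 at 2 h, and −0.24 and 0.34 at 5 h. AT3G16670, beside AT3G16660, had 2.67 and 2.65 at 2 h, and 1.01 and 0.91 at 5 h. PDF1.2c, a defensin gene beside AT5G44440, had 0.95 and 1.03 at 2 h, and 0.15 and −0.12 at 5 h. GSTF9, beside GSTF10, instead had 0.50 and 0.46 at 2 h, and 0.59 and 0.51 at 5 h. The members lie on all chromosomes, with 11, 9, 11, 9 and 9 on chromosomes 1 to 5.

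By the wording of their names, 2 of the 49 genes (4.08%) were transcription factors, against 130 of the 1125 raised at both times (11.6%) and 3.58% of all genes. Receptor-like kinases or proteins were 3 (6.12%), against 13 of those raised at both times (1.16%) and 0.726% of all genes. Names of the cell wall were 4 (8.16%), PNP-A among them for its expansin-like name, against 9 of those raised at both times (0.8%) and 1.06% of all genes. Metabolic enzymes were 5 (10.2%), against 8.53% of genes raised at both times and 7.23% of all genes. By this wording they were CYP96A4, AACT1, PRXCA, Prx37 and GSTF10, which is not the grouping used above. The 9 genes AED1, PEN3, ERD6, HB1, HOS3-1, PAP1, APS3, BGLU6 and FLR1, each placed in a group above, matched no class here. The shares by wording are therefore incomplete. The share without a name was 51.0% in the set and 51.0% over all genes. The counts in the set are small and the shares were not tested.

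Known early stress genes were set beside these, in 4 lists of 72 genes, 70 of them measured. The set, which is 0.262% of all genes, held 0 of the 70, so little can be read from that count. Of the 70, 33 were raised at both times, as were 6.004% of all genes. Among 27 genes of the early immune response, 25 rose and 1 fell at 2 h (26 and 1 by loess), 24 rose and 2 fell at 5 h (25 and 2 by loess), and the median log2 ratio was 1.38 at 2 h and 1.14 at 5 h. WRKY33, a defence transcription factor, stayed high, with 3.35 and 3.38 at 2 h, and 3.25 and 3.04 at 5 h. Among 19 genes of touch and general stress, 19 rose at 2 h and 18 rose and 1 fell at 5 h (18 and 0 by loess), with medians of 3.44 and 2.79. WRKY40 in this list had 5.91 and 6.02 at 2 h, and 5.30 and 5.16 at 5 h. CML38, a calmodulin-like protein gene, had 5.92 and 5.73 at 2 h, and 4.58 and 4.59 at 5 h.

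A few list genes had a course like that of the set at a lower height. The flagellin receptor gene FLS2 had 0.87 and 0.89 at 2 h, and −0.58 and −0.73 at 5 h. RBOHD, which makes reactive oxygen at the plasma membrane, had 1.16 and 1.11 at 2 h, and 0.33 and 0.19 at 5 h. MPK3, a MAP kinase of stress signalling, had 1.00 and 1.07 at 2 h, and 0.10 and −0.03 at 5 h. All of these missed the 2 h threshold.

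Regulators of salicylic acid immunity were the list with the largest fall between the times. Of 12 genes 11 rose and 0 fell at 2 h, 5 rose and 5 fell at 5 h (6 and 4 by loess), and 10 were lower and 0 higher at 5 h than at 2 h (12 and 0 by loess). Their median was 0.90 at 2 h and 0.07 at 5 h, and the median difference, 5 h minus 2 h, was −0.71. PAD4, a partner of EDS1, had 0.94 and 0.97 at 2 h, and 0.19 and −0.07 at 5 h. CBP60G, an activator of salicylic acid synthesis, stayed high instead, with 2.57 and 2.69 at 2 h, and 2.61 and 2.36 at 5 h. Of 12 genes of the MAP kinase cascade, 9 rose and 2 fell at 2 h (10 and 1 by loess), and 7 rose and 3 fell at 5 h (9 and 2 by loess), with medians of 0.61 and 0.56. The lists were chosen with earlier results of these data known, and nothing particular to the set is read from them.

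**Figure D4:**
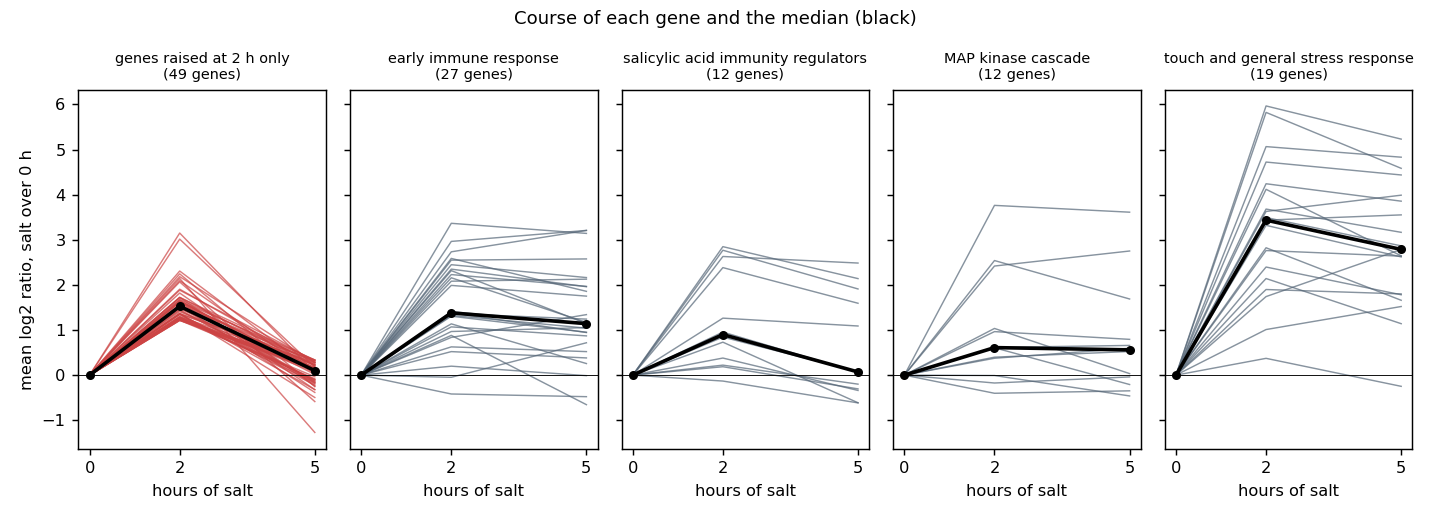
Mean log2 ratio of salt over 0 h at 0, 2 and 5 h for each gene (thin lines) and the median (black) in the set and in the 4 lists; the 0 h point is 0 by construction. The 49 genes have a median of 1.53 at 2 h and 0.10 at 5 h, while the list medians at 5 h, in the order of the panels, are 1.14, 0.07, 0.56 and 2.79.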

How the data were processed

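Per the labels, Cy3 carried RNA of seedlings at 0 h and Cy5 RNA of salt-treated seedlings on 4 arrays, 2 for 2 h and 2 for 5 h. The deposited array files hold intensity per spot and channel, after background subtraction and dye normalization by Agilent Feature Extraction, per the file headers, and a log10 ratio of Cy5 over Cy3 that served only to check the computed ratios. The headers name version 11.5.1.1 of that program, while 9.3.2.1 stands in the submitters' processing notes. The authors' deposited series table holds log2 ratios that followed the log2 ratio of the processed signals across probes (r from 0.9998 to 0.9999), with column medians of 0.143, 0.14, 0.0533 and 0.18. Its centring is not stated, and scale and direction matched the array files.

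Of 43603 probes on 43803 spots that are not controls, 34348 matched 1 gene through a RefSeq transcript. The table, of assembly TAIR10.1, also gave names, chromosomes and the order of neighbouring genes, and no coordinates are given, since the array was annotated on an earlier release. Spots marked as outliers, 14 to 19 on an array, were dropped, and repeat spots of a probe were averaged. Probes kept numbered 29141, of which 3152 had no gene.

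Ratios were tested with limma 3.58.1 in R 4.3.3 (2 residual degrees of freedom, infinite prior degrees of freedom, so that all genes shared one spread), with Benjamini-Hochberg adjustment at 0.05, and its calls are used for genes outside the set and for the background shares only, although the fit held every gene. On simulated data of 18738 genes for 2 h against 0 h, with 100 genes changed by 0.5 and 100 by 1 on the log2 scale, the same code recovered 100% of each and called 7 unchanged genes. The simulated noise was normal, with the one fitted spread for every gene, no shift between arrays and no spread of the control. It checks that the code runs as meant and does not measure the accuracy of the real calls.

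The members, the 4 gene lists and the families were chosen with earlier results of these data known. Genes were named by rule: the 20 members with the highest lower 2 h value, members of each kind by name, those next to a threshold, and genes of the lists. CRK4, ARCK1, the WAK and ABCG genes and other relatives, and the neighbours, were chosen after their values were seen. Alternatives were normexp (offset 50) with loess on median signals, ratios without centring, the deposited table, other filters and thresholds, the median over probes, and leaving out each array. Sequences of promoters, proteins and probes were not used here.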

Additional observations from a re-analysis of the deposited data

How the results depend on the processing

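The number of genes in the set moved with its limits. It was 91 with a 2 h threshold of 1 and 23 with 1.5, and 27 with a 5 h threshold of 0.2, and 65 with 0.6. It was 75 when dim probes passed on fewer arrays and 92 with no filter on dim probes. Leaving out one array gave 52 to 69 genes, the highest without replicate 1 at 5 h. That the larger of these sets hold all 49 and the smaller ones lie within them follows from how the settings are built. Without centring, 50 genes met the rule, 45 of them shared, and the deposited table gave the same 49. The median over probes left 46, and asking every kept probe to meet the rule left 44. With normexp and loess, 42 genes met it, 29 of them shared. In 20 members and 7 alternatives each, the differences of 5 h minus 2 h lay between −3.61 and −0.70, and the choice of members largely fixes their sign. Counts of limma calls stayed within 1.5 times in every alternative run, but loess moved the share of higher calls to 50.5% at 2 h and 50.5% at 5 h, against 36.1% and 40.9%. The replicate numbers are shared between the times, and the labels do not say that they pair samples. Deviations of same-numbered arrays correlated at 0.227 across genes, and a replicate block gave 12541 calls for 5 h against 2 h, against 12020 without the block. The search for promoter motifs was not run, since no promoter sequences were used here. Arrays give no counts, and genes whose probes were near background in either channel lie outside these results.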
